A study of Triticum aestivum with 15 samples.

Results

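Sucrose synthase, invertase and phosphoglucomutase were followed through 6 of the 61290 probe sets of the Affymetrix Wheat Genome Array, in leaves of wheat lines that carry their own or a foreign cytoplasm. Of these, 4 are the probe sets that the study's list of 560 changed probe sets names for these enzymes: 1 each for sucrose synthase type 2, sucrose synthase type I, a cell wall invertase and phosphoglucomutase. That list joins the study's comparisons of each alloplasmic line with its euplasmic control on these same arrays, and the 4 probe sets stand in it for TH237 against T20 alone. The other 2, AFFX-Ta_Sucsyn_3_at and AFFX-Ta_Sucsyn_5_at, are controls built into the array that read the 3′ and 5′ ends of a wheat sucrose synthase transcript, and they served as a second reading. The values of TH237 and T20 for the listed probe sets are therefore a description and carry no test. The comparisons of the other alloplasmic lines were tested, although they took part in forming the list as a whole.

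The lines fall into 2 nuclear backgrounds. TH237 has the nucleus of the hexaploid wheat accession T20 and the cytoplasm of the wild barley Hordeum chilense (accession H7), and T20 is its euplasmic control. T183 and T195 have the nucleus of the wheat cultivar Chris, with cytoplasm of Aegilops uniaristata (plasmon type N) in T183 and of Aegilops squarrosa (plasmon type D, called Aegilops tauschii in the study's methods) in T195, and euplasmic Chris is the control of both. All alloplasmic lines came from repeated backcrossing to the wheat parent, with fewer backcrosses for TH237 than for the Aegilops lines, and remaining wild nuclear material was not examined. Every line was represented by 3 arrays, 15 in all, of the second leaf of 14-day-old seedlings grown at the study's higher light intensity, and each array held RNA from the plants of a pot pooled together.

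Sucrose is the main transport sugar of a wheat leaf. Sucrose synthase splits it reversibly into fructose and UDP-glucose, while invertase (β-fructofuranosidase) hydrolyses it irreversibly into glucose and fructose, in the cell wall space for the extracellular forms. Phosphoglucomutase interconverts glucose 1-phosphate and glucose 6-phosphate, which links these sugars with starch, the cell wall and glycolysis.

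All 6 probe sets were higher in TH237 than in T20, on every array, with differences between 0.97 and 1.80 on the log2(signal + 16) scale. Such a gap, with every TH237 array above every T20 array, was seen for 12.4% of the 31557 probe sets tested, and 1.36% were called higher, that is, with an adjusted p of at most 0.05 in limma and a change of at least 2-fold. Among the members 5 of 6 passed those limits, a count that the choice of the 4 listed probe sets fixed in large part and from which nothing is read. By the methods' t-test none of the 6 passed after adjustment, where 1 of all probe sets did. At an unadjusted p of at most 0.05 by it 5 of the 6 passed, against 4156 of all 31557 probe sets, a count that the choice likewise fixed in large part. In the Aegilops lines, with dim signals as measured, the T183 mean was below that of Chris for 6 of 6 probe sets and the T195 mean for 5 of 6. Limma called none of these differences. For phosphoglucomutase and the 5′ control every T183 array was under the filter's signal limit, so their direction in T183 is not settled. The 5′ control was under it on every T195 array too. Both controls read the same transcript. The share of all probe sets with a mean below Chris was not counted, so nothing is read from these counts.

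**Figure D1:**
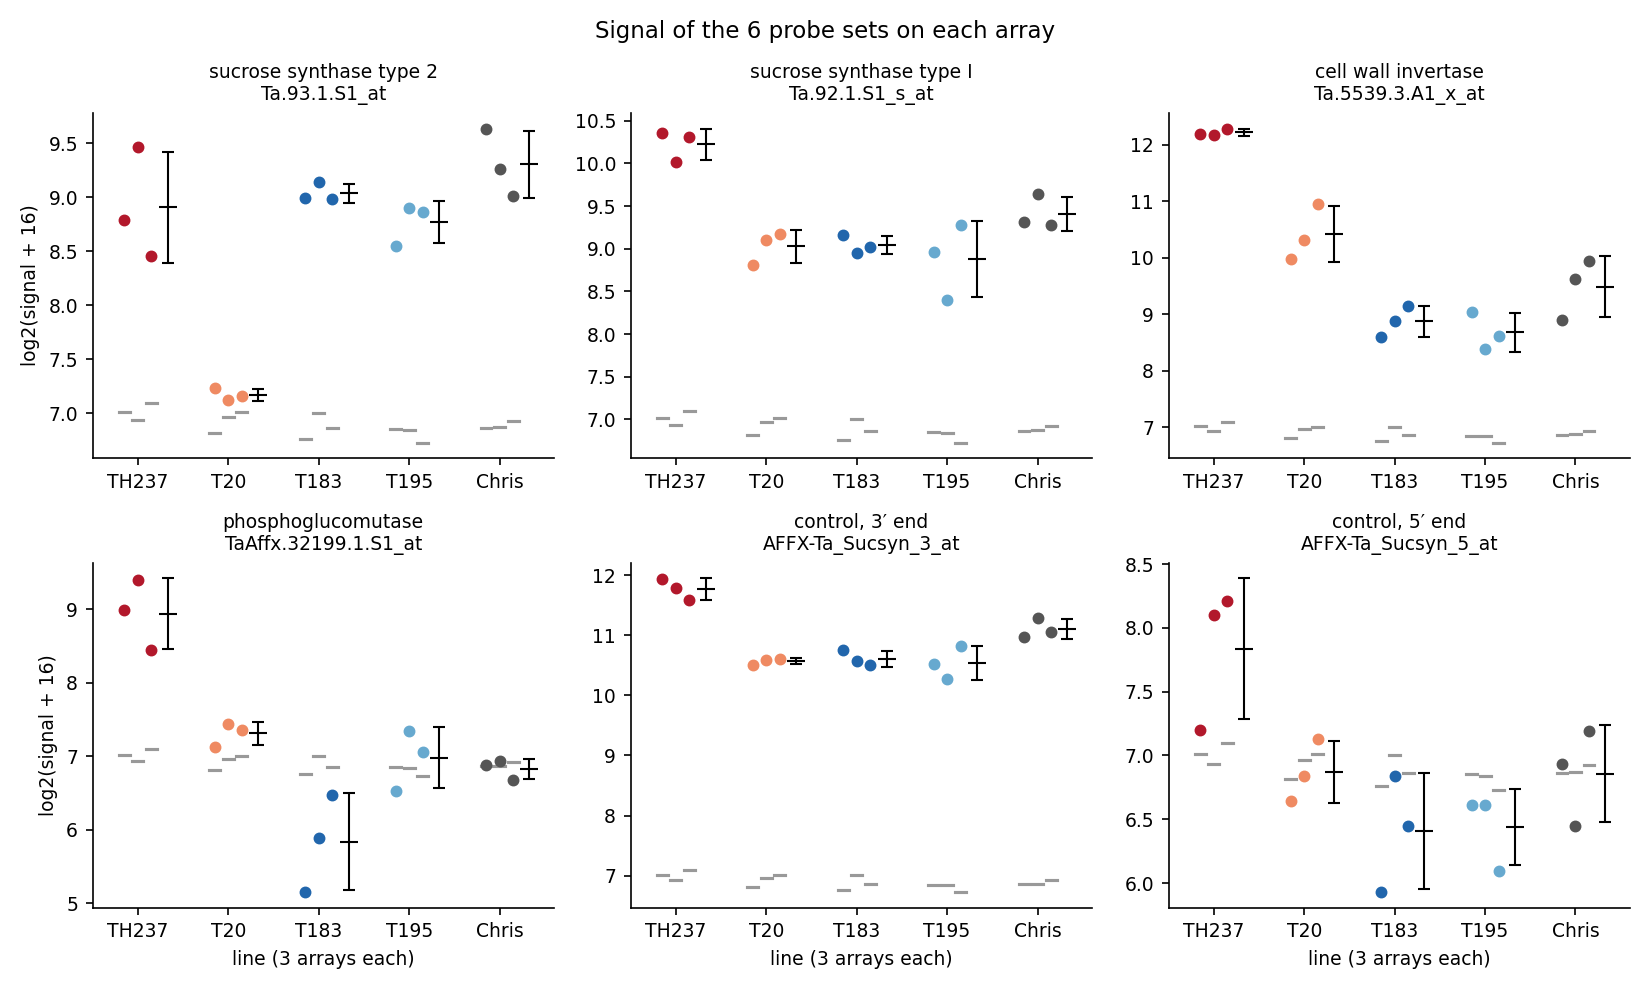
Signal of the 6 probe sets as log2(signal + 16) (vertical axes, a scale of its own in each panel) on each of the 15 arrays, by line (horizontal axes). Coloured points are arrays, the black marks are the line mean ± SD (n = 3), and grey ticks are the 55th percentile of each array. TH237 lies above T20 in every panel, while the other lines take a different order from panel to panel.

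The probe set of sucrose synthase type 2 (LOC542972 in the RefSeq gene table) read 427, 692 and 335 signal units in TH237, against 134, 123 and 126 in T20. T20 was low and even on its 3 arrays, and the lowest TH237 array lay well above all of them. On the log2 scale the line means were 8.91 ± 0.51 for TH237 and 7.17 ± 0.06 for T20 (SD, n = 3 each), a difference of 1.74 ± 0.23 (SE), or 3.34-fold. T183 gave 493, 547 and 490.0 units and T195 gave 358, 463 and 448 units, against 779, 599 and 500.2 in Chris. Chris was thus the highest line for this probe set and TH237 only the third: from the top the means ran Chris 9.30, T183 9.04, TH237 8.91, T195 8.77 and T20 7.17. Arrays of neighbouring lines overlapped at each of these steps except the last, where T195 lay 1.60 above T20. T20 differed from Chris by -2.14 ± 0.23, more than TH237 differed from T20.

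Sucrose synthase type I (LOC543390) followed another order. TH237 had 1292, 1022 and 1252 signal units, against 433, 535 and 561 in T20. The difference was 1.20 ± 0.21 on the log2 scale (2.29-fold), the smallest of the 4 listed probe sets. In T183 the signals were 555, 478 and 503, in T195 481, 323 and 605, and in Chris 621, 783 and 604.5. Here TH237 was the highest line, without overlap with any other, at a mean of 10.23 ± 0.18. Chris followed at 9.41 ± 0.20, above every T183 array, and T183 (9.04 ± 0.11), T20 (9.03 ± 0.19) and T195 (8.88 ± 0.44) overlapped with each other. T195 had the widest spread, with replicate 2 lowest and replicate 3 highest. Its identifier ends in _s_at, which marks a probe set whose probes can match more than a single transcript, so closely related copies may share this signal.

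The cell wall invertase probe set, whose listed match is a β-fructofuranosidase of Triticum monococcum, showed the widest range among lines. TH237 gave 4659, 4627 and 4976 signal units, against 998, 1259 and 1968 in T20. The signals were 370.3, 455 and 552 in T183 and 512.5, 316 and 376 in T195, against 460.1, 768 and 972 in Chris. TH237 was high and even, while the highest T20 array lay well below the lowest TH237 array. The log2 means were 12.22 ± 0.06 in TH237 and 10.42 ± 0.49 in T20, a difference of 1.80 ± 0.29 or 3.48-fold. Both lines with the T20 nucleus lay above all those with the Chris nucleus: T20 exceeded Chris by 0.93 ± 0.29, with the lowest T20 array at 9.99 and the highest Chris array at 9.95. Chris (9.49 ± 0.54), T183 (8.87 ± 0.28) and T195 (8.68 ± 0.34) overlapped with their neighbours. Its identifier ends in _x_at, which marks probes that can also bind other transcripts of similar sequence.

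Of the 3 further probe sets that carry the cluster number of this invertase, 1 was bright in TH237 and T20. Like the member, it had TH237 above T20 and T20 above the lines with the Chris nucleus, whose own order differed from that of the member. It read 1789.6, 1933 and 1519 units in TH237, against 252, 346 and 462 in T20. The difference was 2.29 ± 0.36, or 4.89-fold, and no array overlapped. In T183 it gave 72.0, 60.4 and 115 units, in T195 102, 117 and 138, and in Chris 51.0, 167 and 179, so that T183 and T195 both overlapped with Chris (T183 minus Chris -0.48 ± 0.36, adjusted p = 0.872; T195 minus Chris 0.00 ± 0.36, adjusted p = 0.999, limma). It passed the 55th percentile on 1 T183, 3 T195 and 2 Chris arrays. With the dim T183 arrays set at that percentile, T183 minus Chris was -0.13. The other 2 probe sets of the cluster lay under the 55th percentile of the array on all 15 arrays and were not tested. A shared cluster number is not a gene name, and no further probe set shares a cluster number with the other 3 listed members.

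The probe set that the study classes as phosphoglucomutase has listed matches that disagree: the class and the putative product name phosphoglucomutase, the best protein match is a rice phosphomannomutase and the family named is that of phosphoglucosamine mutase, with a chloroplast location, so the substrate of its product is not settled by the annotation. It read 490.1, 659 and 332 signal units in TH237, against 124, 158 and 149 in T20, with no overlap and a difference of 1.63 ± 0.32 (3.10-fold). In T183 it gave 19.6, 43.1 and 72.8 units, in T195 76.4, 147 and 117, and in Chris 102, 106 and 86.5. T183 was the lowest line, and all its arrays lay under the 55th percentile of the array. T195 and Chris were each above that percentile on 2 of 3 arrays. The line means ran TH237 8.94 ± 0.48, T20 7.31 ± 0.16, T195 6.98 ± 0.41, Chris 6.83 ± 0.13 and T183 5.84 ± 0.66. Of the middle 3, each overlapped with the next, and TH237 and T183 stood apart at the ends.

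The array's own sucrose synthase control gave a second reading of the same leaves. AFFX-Ta_Sucsyn_3_at, at the 3′ end, had 3899.8, 3523 and 3050.5 units in TH237, against 1439, 1518 and 1541 in T20, a difference of 1.20 ± 0.16 (2.30-fold). Its order of lines was TH237 (11.77 ± 0.18), Chris (11.10 ± 0.16), T183 (10.61 ± 0.13), T20 (10.57 ± 0.05) and T195 (10.54 ± 0.28). By line means this is the order of sucrose synthase type I and not that of type 2. Its last steps, 0.04 from T183 to T20 and 0.03 from T20 to T195, lie between lines whose arrays overlap, so that part of the order is not resolved. Which transcript the control was designed on is not stated by the files. T183 read 1715, 1499.9 and 1432 units, T195 1457, 1218 and 1799.9, and Chris 1989.5, 2471 and 2105. Every T183 array and every T195 array lay below every Chris array, whereas T183, T20 and T195 overlapped.

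The 5′ end of the same control was near the floor of the array. AFFX-Ta_Sucsyn_5_at had 131, 258 and 279.6 units in TH237, against 84.2, 98.3 and 124 in T20, a difference of 0.97 ± 0.30. Most T20 readings are only bounds, and with the dim T20 arrays set at the 55th percentile TH237 was at least 1.82-fold higher. The 5′ control passed the 55th percentile on all 3 TH237 arrays, on 1 T20 array and on 2 Chris arrays, and on none of T183 or T195. T183 gave 44.9, 98.2 and 71.4 units, T195 82.0, 81.8 and 52.3, and Chris 106, 71.0 and 130.5. Below TH237 the other lines overlapped at every step of the order.

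A further control of the middle of this transcript, AFFX-Ta_Sucsyn_M_at, is no member and was left out of the test. It gave 749, 1091.5 and 1115 units in TH237, against 473, 469 and 388 in T20, a difference of 1.11 ± 0.20 (2.15-fold) without overlap. Below TH237 its order was Chris, T195, T20 and T183, unlike that of the 3′ end, with overlap at every step. T183 differed from Chris by -0.36 ± 0.20 and T195 by -0.18 ± 0.20, both with overlap. The 3 readings of the transcript thus placed TH237 above T20 by 1.20, 1.11 and 0.97 on the log2 scale, at the 3′ end, the middle and the 5′ end. Between replicates of a line they did not move together. With line means subtracted, the Pearson correlation over the 15 arrays was -0.69 for the 3′ with the 5′ end and -0.68 for the 3′ end with the middle. For the 5′ end with the middle it was 0.71.

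The distance between the ends of this control is the usual sign of RNA and labelling quality on such arrays. The 3′ signal exceeded the 5′ signal by 3.93 ± 0.71 in TH237 and 3.69 ± 0.20 in T20, and by 4.20 ± 0.56 in T183, 4.10 ± 0.56 in T195 and 4.24 ± 0.52 in Chris (log2, SD, n = 3 each). The lines overlapped in this distance. For the G-6-PDH control it was 1.63 ± 0.27 in TH237 and 1.72 ± 0.17 in T20, and for the ubiquitin control -0.68 ± 0.14 in TH237 and -0.75 ± 0.05 in T20. Within each line the array with the largest distance for sucrose synthase also had the largest for G-6-PDH. Examples are TH237 replicate 1 (4.74 and 1.87) and Chris replicate 2 (4.84 and 2.51). Other controls shared that array in part of the lines only. Ubiquitin did in TH237, T195 and Chris but not in T20 or T183, and actin did in TH237, T20 and T195 but not in T183 or Chris. The remaining wheat controls were dim at an end on most arrays. Whether RNA quality had a part in the members' values was not tested. The 5′ signal of sucrose synthase was above the 55th percentile on only 6 of 15 arrays, so this distance is poorly measured on the others.

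**Figure D2:**
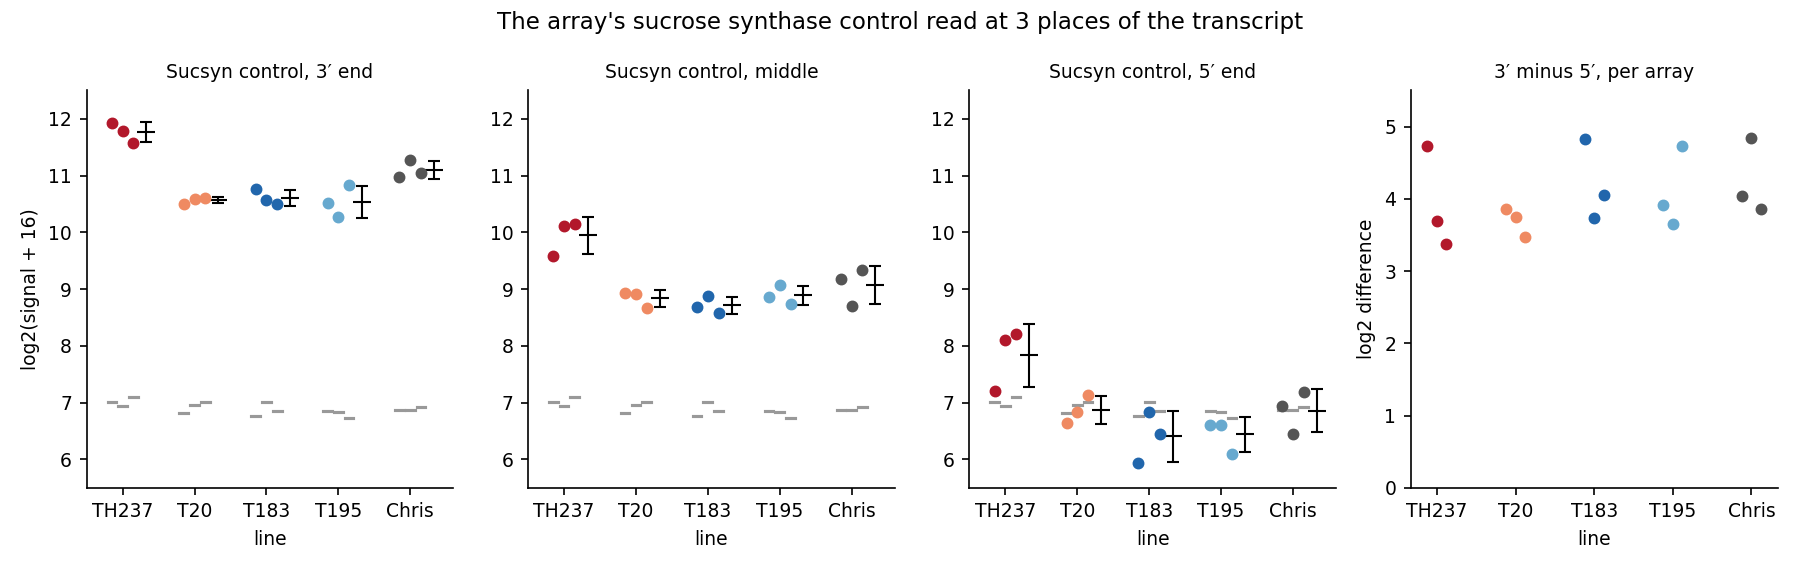
The sucrose synthase control of the array at its 3′ end, middle and 5′ end as log2(signal + 16) by line, on a common vertical scale, and the 3′ minus 5′ difference of each array (right panel, log2). Points are arrays, black marks the line mean ± SD (n = 3) and grey ticks the 55th percentile of each array. TH237 lies above T20 at all 3 places, while the 3′ minus 5′ difference overlaps among all 5 lines.

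For the Aegilops cytoplasms the question was whether the same enzymes differ from euplasmic Chris. None of the 6 probe sets was called in T183 against Chris, where 0.124% of all probe sets were called, nor in T195 against Chris, where 0.254% were called. T183 and T195 share the 3 Chris arrays, so their differences from Chris are not independent.

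In T183, sucrose synthase type 2 differed from Chris by -0.27 ± 0.23 (adjusted p = 0.902, limma, as for all adjusted p given here) and type I by -0.37 ± 0.21 (adjusted p = 0.803). Their 95% intervals, not adjusted for the number of probe sets, ran from -0.76 to 0.23 and from -0.81 to 0.08. The invertase differed by -0.61 ± 0.29 (adjusted p = 0.735, interval -1.24 to 0.01). The phosphoglucomutase probe set showed the widest gap, -0.996 ± 0.316 (adjusted p = 0.454, interval -1.68 to -0.31). Because all T183 arrays were under the 55th percentile, its signal there is only a bound, and with T183 set at that percentile Chris was no longer the higher line, so no fold is given. The 3′ control differed by -0.49 ± 0.16 (adjusted p = 0.477) and the 5′ control, likewise dim on every T183 array, by -0.45 ± 0.30 (adjusted p = 0.848). For the 5′ control too, Chris was no longer the higher line with T183 set at that percentile. Sucrose synthase type I, phosphoglucomutase and the 3′ control, 3 of 6, were lower in T183 on every array, an arrangement found for 6.24% of all probe sets.

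In T195, sucrose synthase type 2 differed from Chris by -0.53 ± 0.23 (adjusted p = 0.404, interval -1.03 to -0.04) and type I by -0.53 ± 0.21 (adjusted p = 0.352, interval -0.98 to -0.09). The invertase lay 0.81 lower on the log2 scale, the difference being -0.81 ± 0.29 (1.75-fold lower, adjusted p = 0.31, interval -1.43 to -0.18). Phosphoglucomutase was the exception to the lower readings, with a difference of 0.14 ± 0.32 (adjusted p = 0.917, interval -0.54 to 0.83). The 3′ control gave -0.56 ± 0.16 (1.47-fold lower, adjusted p = 0.204), the smallest adjusted p of any member in these comparisons, and the 5′ control, dim on every T195 array, -0.42 ± 0.30 (adjusted p = 0.68). Type 2 and the 3′ control, 2 of 6, were below Chris on every array, against 8.99% of all probe sets. The 3′ control alone was below Chris on every array of both lines, as were 2.62% of all probe sets. At an unadjusted p of at most 0.05 in limma, 2 of 6 members passed in T183 and 4 of 6 in T195, against 6.89% and 11.2% of all probe sets, and none did after adjustment. By the methods' t-test 1 and 0 passed unadjusted, against 4.06% and 6.37% of all probe sets, and again none after adjustment.

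**Figure D3:**
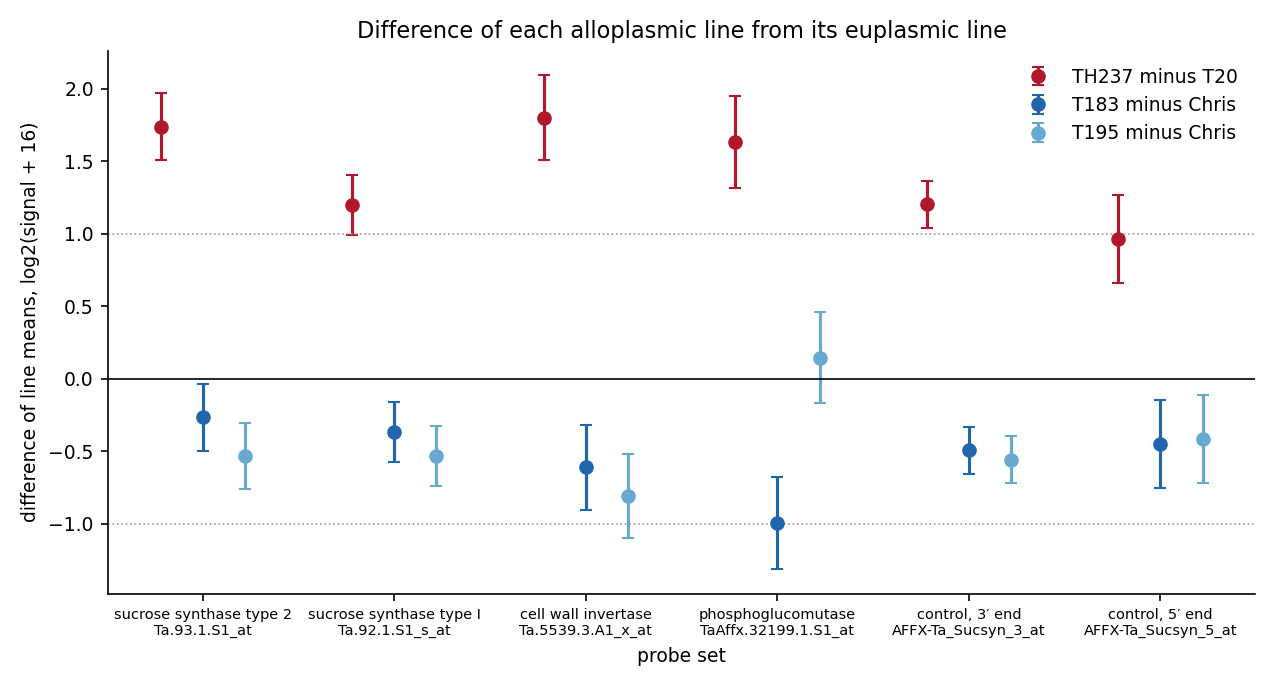
Difference of line means on the log2(signal + 16) scale (vertical axis) for each probe set (horizontal axis) in TH237 minus T20, T183 minus Chris and T195 minus Chris. Points are fitted differences, bars ± 1 SE from the limma model, and dotted lines a 2-fold change. TH237 minus T20 lies between 0.97 and 1.80, and the Aegilops lines lie between -0.996 and 0.14, with dim signals as measured and not at their bound.

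Set against each other, T183 and T195 differed for 5 of 6 probe sets by between -0.04 and 0.27 on the log2 scale, with adjusted p between 0.882 and 0.993. The intervals of these differences reached at most 0.82 upward and -0.69 downward, and the 5′ control was under the 55th percentile on every array of both lines. Phosphoglucomutase again set them apart, at -1.14 ± 0.32 for T183 minus T195 with no overlap (adjusted p = 0.285, interval -1.82 to -0.46). At the bound for the dim T183 arrays, T195 was at least 1.07-fold higher. No member was called by limma (1 of 6 at an unadjusted p of at most 0.05, against 7.89% of all probe sets, and 0 by the methods' t-test, against 4.28%), where 0.0729% of all probe sets were.

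A median over the 4 listed probe sets describes them together. It was 1.68 in TH237 minus T20, -0.49 in T183 minus Chris and -0.53 in T195 minus Chris, whereas the median of all 31557 probe sets tested was 0.00, -0.01 and -0.01 in these comparisons. The TH237 value follows from the choice of the probe sets.

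Around these enzymes, the study's list holds 11 further probe sets of carbohydrate metabolism and sugar transport, all of which passed the filter on low signals. They too were chosen on these arrays, so their TH237 values are a description: 6 passed the limits upward and 2 downward in limma, against 1.36% and 0.925% of all probe sets, counts that the choice again fixed. By the methods' t-test none passed after adjustment. At an unadjusted p of at most 0.05 by it 9 passed, against 4156 of all 31557 probe sets, and the choice bears on this count too. The median was 1.13 over the 10 that were above the 55th percentile on any array of these lines. Highest were both probe sets described as phosphoenolpyruvate carboxylase, the enzyme that carboxylates phosphoenolpyruvate to oxaloacetate. The brighter of the pair read 3346, 2852 and 2474 units in TH237, against 744, 516 and 757 in T20, a difference of 2.09 ± 0.25. Its partner differed by 1.72 ± 0.22, and the probe set of a kinase that phosphorylates that enzyme by 1.33 ± 0.27. In the other direction stood a probe set matched to a hexose uptake transporter, at -1.78 ± 0.28, and another matched to a polyol transporter, at -1.17 ± 0.15. A further probe set related to sugar transporters differed by 1.15 ± 0.23, so the readings of these 3 carriers stood on both sides of 0. The polyol and sugar transporter probe sets were named after their values had been seen.

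None of these 11 was called by limma in T183 or in T195 against Chris (1 in T183 and 5 in T195 at an unadjusted p of at most 0.05, against 6.89% and 11.2% of all probe sets, or 1 and 2 by the methods' t-test, against 4.06% and 6.37%), and their medians were -0.26 in T183 and -0.27 in T195. In both comparisons 8 differences were negative and 3 positive. The largest in T183 were 1.08 ± 0.50 (adjusted p = 0.723) for a probe set classed by the study as sucrose phosphate phosphatase but described as an aldehyde dehydrogenase, and -0.90 ± 0.22 (adjusted p = 0.234) for a relative of ribose 5-phosphate isomerase, an enzyme of the pentose phosphate pathway. T195 had its largest at -0.80 ± 0.25 for the brighter phosphoenolpyruvate carboxylase probe set (adjusted p = 0.243) and -0.61 ± 0.22 for the isomerase relative (adjusted p = 0.315). In TH237 and T20 the probe set of the aldehyde dehydrogenase was under the 55th percentile on every array and is given no fold there.

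**Figure D4:**
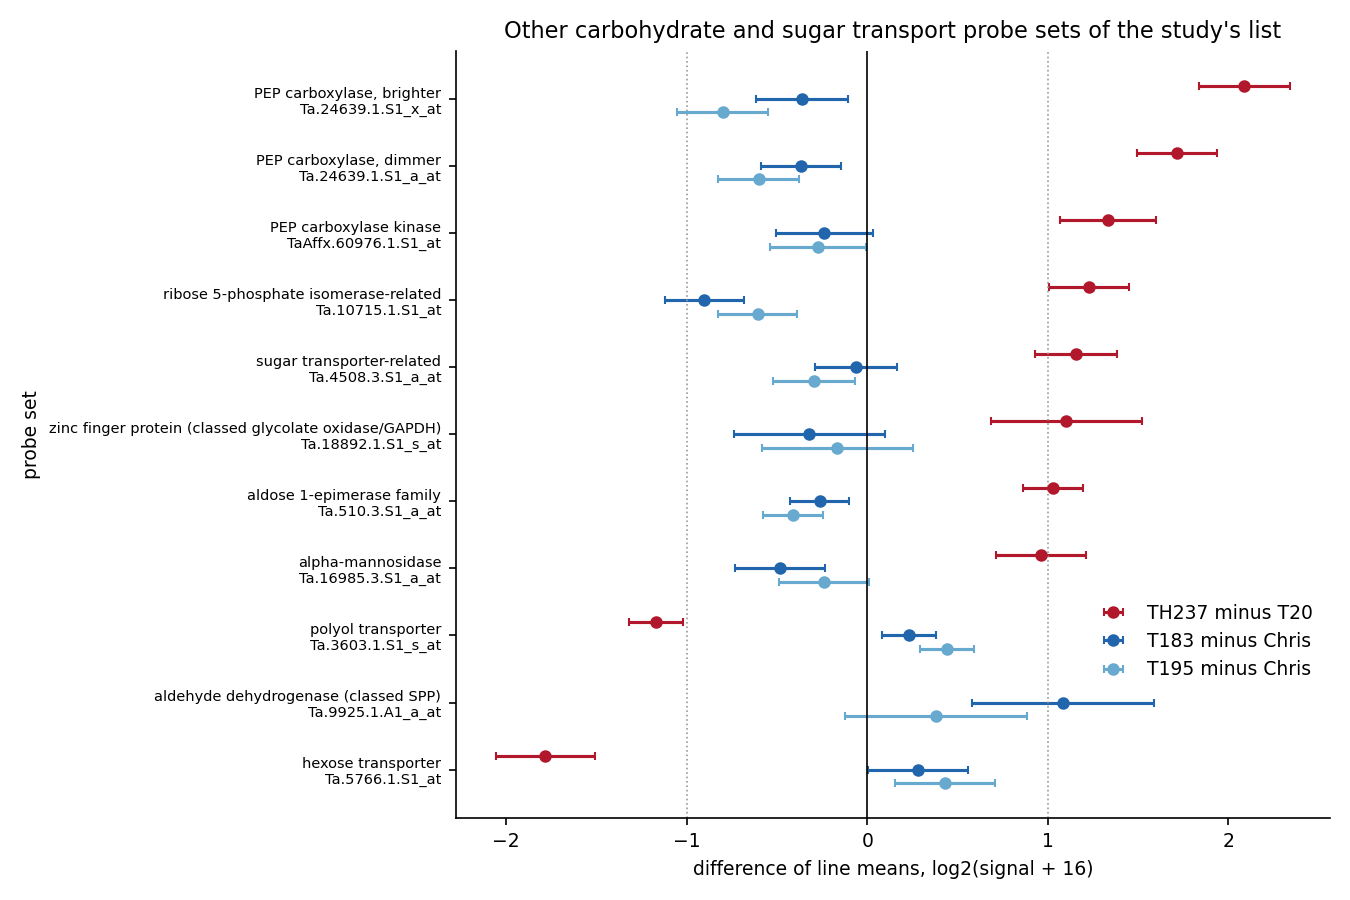
Differences of line means on the log2(signal + 16) scale (horizontal axis) for the 11 further carbohydrate and sugar transport probe sets of the study's list (vertical axis), in TH237 minus T20, T183 minus Chris and T195 minus Chris. Points are fitted differences, bars ± 1 SE, and dotted lines a 2-fold change. Of the 10 TH237 differences 8 are positive and 2 negative, with no point for the aldehyde dehydrogenase, which was under the 55th percentile on every TH237 and T20 array, while in each Aegilops line 8 of 11 are negative and 3 positive.

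By gene symbol, the probe annotation given with the arrays named only 3 probe sets of sucrose, starch or hexose phosphate metabolism, of which 1 was bright enough to test. It is named FBP, fructose bisphosphatase, which removes a phosphate from fructose bisphosphate on the way to sucrose and starch. It differed by -0.26 ± 0.18 in TH237 minus T20, by -0.21 ± 0.18 in T183 minus Chris (adjusted p = 0.9) and by -0.20 ± 0.18 in T195 minus Chris (adjusted p = 0.752), and was called in none.

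The 3 probe sets whose pattern was most like that of each member were ranked by Pearson correlation over the 15 arrays, after the mean of the nuclear background had been subtracted. The members themselves and the middle control were left out of the ranking. The correlations lay between 0.909 and 0.971 for the 18 probe sets so found, points share the arrays, and the groups differ in level, so they are given as a ranking only. The nearest of the probe sets ranked reached 0.971 for sucrose synthase type 2, 0.942 for type I and 0.951 for the invertase. It reached 0.923 for phosphoglucomutase, 0.946 for the 3′ control and 0.953 for the 5′ control. Between sucrose synthase type I and the 3′ control, both left out as candidates, the same correlation was 0.957, above the nearest ranked value of either. With line means subtracted instead, it was 0.782 for that pair but -0.664 for type I with the middle control. In the study's list 5 of the 18 appear, and 4 of these have a named match there. The third for sucrose synthase type 2 was a lipid transfer family member matched to Arabidopsis DIR1, and second for phosphoglucomutase an O-methyltransferase. The first and second for the invertase were a zinc finger protein and a chlorophyll binding protein of photosystem II matched to LHB1B1. No member shared its 3 ranked probe sets with another member.

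Some facts of the arrays bear on these values. Median signals ranged from 67.3 to 94.9 over the 15 arrays, and R-squared between replicates of a line from 0.913 to 0.935. Array number and signal over background, rather than a read depth, limit the precision. The only leaf marker at hand was the rubisco small subunit probe set of the study's list. It was listed because it changed on these arrays, so it cannot serve as a check of the tissue. This probe set read 5486, 4733 and 5045 units in TH237, against 1853, 2681 and 3516 in T20. It read 72.4, 146 and 243 units in T183 and 235, 326 and 177 in T195, against 239, 485 and 3776 in Chris. The T183 replicate 1 signal was under the 55th percentile of its array. This probe set differed widely among the lines, and Chris replicate 3 stood far above the other Chris arrays. Chris replicate 3 was also the highest Chris array for the invertase, and without it the invertase differences were -0.38 in T183 minus Chris and -0.58 in T195 minus Chris. Without Chris replicate 1, the lowest Chris array for the invertase, they were -0.91 and -1.10. No other leaf, grain or floral marker of the lists had a symbol in the annotation. In whole leaves, fewer cells of a type and less RNA per cell cannot be told apart, and whether leaf composition had a part in these differences was not tested.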

How the data were processed

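The authors deposited an intensity for each probe set and array, a MAS5 signal on the linear scale (the submitters' processing notes name MAS5, with no version), with arrays scaled to a common 2% trimmed mean. The study's own RMA values and comparisons were not used, nor were the metabolite profiles and the plants at lower light, which were not analysed here. Samples were grouped by their labels. To each signal 16 was added before the log2. Probe sets were tested where their signal passed the 55th percentile of its array in 3 or more of the arrays, which left 31557, the 2 sucrose synthase controls among them (109 further controls were left out). In R 4.3.3 with limma 3.58.1, a model of 5 lines was fitted to the 15 arrays (10 residual and 3.20 prior degrees of freedom, prior SD 0.257), and p-values were adjusted by the Benjamini-Hochberg method over all probe sets tested. Calls required both an adjusted p no higher than 0.05 and a 2-fold or larger change. Fold changes on this scale understate the change of dim probe sets. The labels give no batch, and p-values measure the spread between these pots only. An exact permutation test of 3 against 3 arrays cannot go below p = 0.1, so none was used. Of the listed members 2 had a gene in the probe annotation, matched to RefSeq gene symbols. The named probe sets were the 6 members, those with their cluster numbers, and up to 4 of each further list with the largest differences. For each member the 3 with the highest correlation were added, with members and the middle control left out as candidates. The members and lists were chosen with earlier results of these data known. The script was tested on simulated arrays. Alternatives were another added value, scaling, filter, array set, replicate block, left-out array, and the methods' t-test. That t-test (Welch) was run on the same log2 values and filter as limma, not on the study's RMA values and present calls.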

Additional observations from a re-analysis of the deposited data

Results flagged for a closer look

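For 4 probe sets the arrays of TH237 all lay above those of T20 while all arrays of an Aegilops line lay below those of Chris. Of all probe sets tested, 12.4% had TH237 above T20 in this way, 6.24% had T183 below Chris and 8.99% had T195 below Chris. The share with both patterns at once was not counted, so nothing is read from the count of 4. The TH237 minus T20 difference exceeded the T183 minus Chris difference by 1.57 for sucrose synthase type I, by 2.63 for the phosphoglucomutase probe set and by 1.70 for the 3′ control (AFFX-Ta_Sucsyn_3_at), on the log2 scale. It exceeded the T195 minus Chris difference by 2.27 for sucrose synthase type 2 and by 1.76 for the 3′ control. The difference was not tested in any of these cases, since the TH237 contrast chose 3 of the 4 probe sets. T183 signals of the phosphoglucomutase probe set were under the 55th percentile on every array, so 2.63 rests on readings that are only bounds, and with T183 set at that percentile its mean was not below that of Chris.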

How the results depend on the processing

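For the members, 345 of 352 recomputed differences kept their direction, and TH237 minus T20 stayed positive under every alternative that gave a value (0.75 to 2.07). The 7 reversed differences were all small and came from leaving out an array: phosphoglucomutase in T195 minus Chris (-0.0407 to 0.369, negative without T195 replicate 2), and in T183 minus T195 sucrose synthase type I (-0.0756 to 0.361), the 3′ control (-0.0678 to 0.211) and the 5′ control (-0.251 to 0.203). In the Aegilops comparisons no member was called under any alternative, with adjusted p at or above 0.11. In TH237 minus T20, 5 of 6 members passed the limits, but 0 by the methods' t-test, 4 without TH237 replicate 2 and 4 without T20 replicate 1 (phosphoglucomutase lost in both), and 6 without TH237 replicate 1 (the 5′ control gained). The choice of the 4 listed probe sets on these arrays fixed the positive sign and these counts in large part, so nothing is read from them. Counts of calls moved more. TH237 minus T20 had 720 calls, 1354 with no fold limit and 438 to 610 without an array (lowest without T20 replicate 1, and 478 without TH237 replicate 2). T183 minus Chris had 39, and 28 to 75 without an array (75 without Chris replicate 1). T195 minus Chris had 80, 43 with no filter, 26 from the arrays of these lines alone, and 33 to 108 without an array (33 without Chris replicate 3, 42 without T195 replicate 3, 51 without Chris replicate 2). T183 minus T195 had 23, 35 with 64 added, 13 with no filter, 11 from the arrays of these lines alone, and 12 to 26 without an array (12 without T183 replicate 3, 15 without T195 replicate 3). Run on these values and this filter, the methods' t-test called 1, 1, 0 and 0 in these comparisons after adjustment. By it 4156, 1282, 2010 and 1351 probe sets had an unadjusted p of at most 0.05 (limma 5666, 2174, 3531 and 2489). The cause was not tested for any of these. The stricter filter left out phosphoglucomutase and the 5′ control, which then had no value.

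Same-numbered arrays of different lines deviated with correlations of -0.196 to 0.219 (median 0.00, 3 of 30 over 0.1), so the numbers do not pair the arrays. With the replicate block 674, 40, 79 and 26 probe sets were called in these comparisons, and the differences of the members were the same, for example 1.74 for sucrose synthase type 2 in TH237 minus T20.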
